A study of Danio rerio with 23 samples.

Results

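A set of 249 transcripts, of 57775 listed in the files, stood high in just 2 of the 6 ovary libraries from mutant zebrafish at 6 months of age. They were found from CPM, a transcript's estimated count divided by the library's total and scaled to a total of 1e+06. Members had a second highest CPM among these 6 libraries of at least 5, and at least 5 times the third highest, with 0.1 CPM added to both. The values of the 6 libraries thus chose the members, and their levels there are given as a description, with no test. Of the 249, 210 (84.3%) were highest in the same pair, GRKO libraries 10 and 12. The remaining 39 were spread over 12 other pairs of the 15 possible.

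The samples were ovaries dissected from female zebrafish (Danio rerio), sequenced as polyadenylated RNA. Wild-type (WT) fish were compared with fish carrying a homozygous loss of nr3c1 in the whole body (nr3c1 -/-, titled GRKO), which the labels give for 5 of the 6 GRKO libraries at 3 months and all 6 at 6 months. GRKO library 4 at 3 months has a WT entry in its genotype field and was kept in GRKO by its title. There were 5 WT and 6 GRKO libraries at 3 months after fertilisation and 6 of each at 6 months. No treatment besides age is given, and whether every library is a different fish is not stated. A p-value here thus reflects only how these libraries vary, and some of that variation may be technical. Libraries are named by the number in their titles.

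The product of nr3c1 is the glucocorticoid receptor, a nuclear receptor that binds cortisol, moves to the nucleus and changes transcription of its target genes. It takes part in the stress response, metabolism and immune control of vertebrates. The zebrafish ovary holds oocytes of many stages, each wrapped in follicle cells, with stroma, vessels and immune cells between them. A library of whole dissected ovary pools the RNA of all cells in the piece, so that fewer cells of a type and less RNA per cell cannot be told apart.

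Each library held between 29489146 and 39785753 estimated counts, and 32.7% to 38.1% of the listed transcripts reached 1 CPM in it. GRKO libraries 10 and 12 at 6 months lay inside both ranges or at their lower end, with 31242818 and 31888859 counts and 36.0% and 32.7% of transcripts at 1 CPM. Their TMM scaling factors, which correct for a few abundant transcripts, were 1.01 and 0.852, the latter the lowest of the 23 libraries. The transcript identifiers could not be matched to gene names here. The members are therefore given by identifier, no function is assigned to them, and marker genes of the ovary or of other tissues and the transcripts of nr3c1 were not analysed here.

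The 210 members highest in GRKO libraries 10 and 12 made up a large share of both libraries. They held 7.62% of all counts in library 10 and 6.51% in library 12. In GRKO libraries 2, 3, 5 and 11 of the same group they held 0.00692%, 0.00644%, 0.00708% and 0.00708%. The 4 low libraries differed little from each other, and both high libraries lay far above them.

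A few members carried a large share of this signal. The most abundant, ENSDART00000050238.6, ranked first of all transcripts in both libraries, with 29297 CPM (2.93% of counts) in library 10 and 15278 CPM (1.53%) in library 12. In the other GRKO libraries at 6 months it stood at 1.95, 0, 0.0382 and 2.11 CPM in libraries 2, 3, 5 and 11. The second, ENSDART00000061165.7, stood at 6841 and 5019 CPM in libraries 10 and 12 and between 0 and 1.2 CPM in the 4 others. With ENSDART00000136837.2, next by the lower value of the pair, they made up 53.4% of the set's counts in library 10 and 37.4% in library 12. These transcripts were named after their values were seen.

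By the lower of their CPM values in the pair, 11 members were at 1000 CPM or more, 28 at 100 to 1000, 99 at 10 to 100 and 72 at 5 to 10. The median was 16.7 CPM. The third highest library had a median of 0.241 CPM, and 66 of the 210 were at least 100 times lower there, with 0.1 CPM added. At the other end, 23 lay between 5 and 10 times. Just inside the limit of the rule was ENSDART00000141714.2, at 36.2 and 52.7 CPM in libraries 10 and 12 and 7.16 CPM in the next. Just outside it was ENSDART00000171777.3, highest in GRKO libraries 10 and 3 at 10.6 and 7.31 CPM with 1.40 CPM in the next, a ratio of 4.93.

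**Figure D1:**
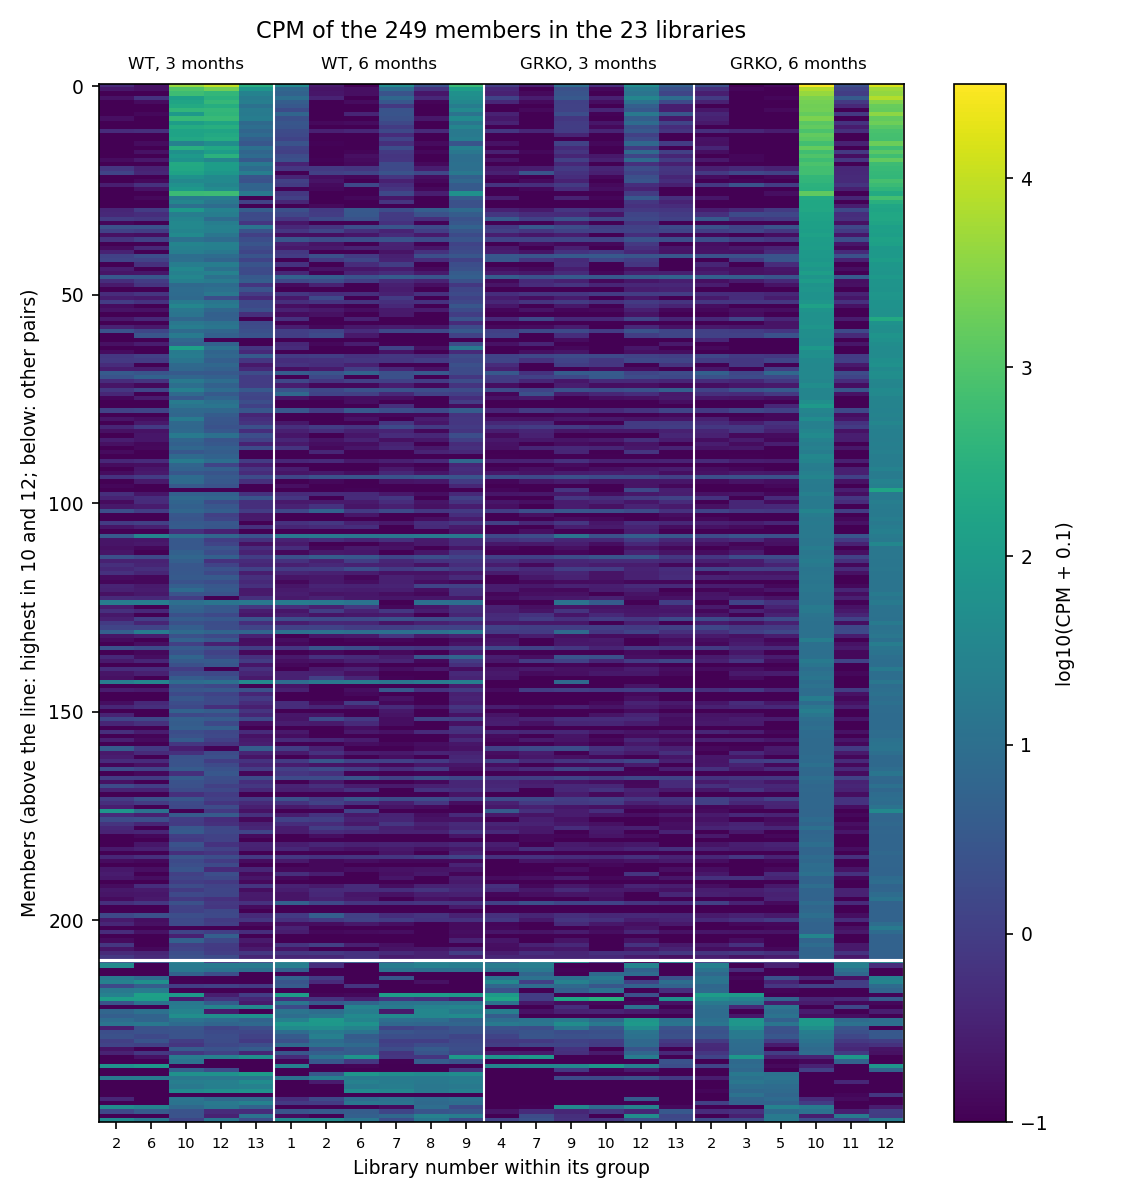
Level of each of the 249 members (rows) in the 23 libraries (columns, grouped by genotype and age and numbered within a group), as log10 of CPM plus 0.1. The 210 rows above the white line are bright in GRKO libraries 10 and 12 at 6 months, dimmer in WT libraries 10 and 12 at 3 months and fainter in WT library 9 at 6 months, while the 39 rows below it are bright in varying sets of libraries.

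The same 210 transcripts were also high in a few wild-type libraries. Their summed level in WT at 3 months was 12133 CPM in library 10 and 18666 CPM in library 12, but 857 CPM in library 13 and 197 and 189 CPM in libraries 2 and 6. These 5 libraries thus fell into a high pair, an intermediate one and a low pair. In WT at 6 months the sum was 1456 CPM in library 9 and 132 to 245 CPM in the other 5. In GRKO at 3 months it ranged from 62.3 to 282 CPM with a median of 83.5 CPM, and library 12 was the highest. In WT at 3 months and in GRKO at 6 months, high and low libraries thus stood side by side. WT library 9 at 6 months and GRKO library 12 at 3 months stood above the rest of their groups, but far below the high pairs.

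By summed CPM, the order of the libraries was GRKO 10 and 12 at 6 months, then WT 12 and 10 at 3 months, then WT 9 at 6 months and WT 13 at 3 months. GRKO library 12 at 3 months followed at 282 CPM, close to WT library 1 at 6 months at 245 CPM. Within the GRKO pair, the order depended on the most abundant member, while WT library 12 stayed above WT library 10 without it. Without ENSDART00000050238.6, GRKO libraries 12 and 10 at 6 months summed to 49867 and 46876 CPM, and WT libraries 12 and 10 at 3 months to 8601 and 7439 CPM. Among the WT libraries at 3 months, 155 of the 210 members were highest in library 10 and 45 in library 12. Library 12 had the highest or next highest sum in the 3 groups that hold it, and WT at 6 months has no library of that number. Library 10 was high in WT at 3 months and GRKO at 6 months but not in GRKO at 3 months, where it stood at 69.9 CPM. The labels give no meaning to a shared number, and whether it marks a shared handling was not tested.

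**Figure D2:**
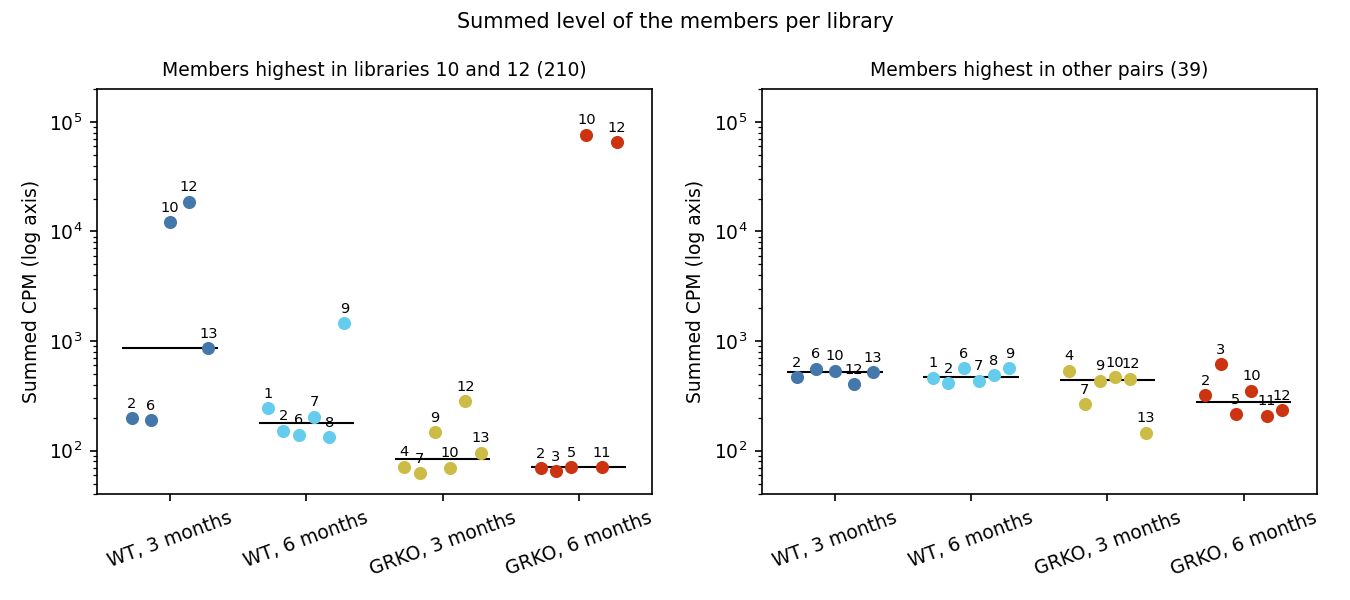
Summed CPM (log axis) of the 210 members highest in GRKO libraries 10 and 12 (left) and of the 39 highest in other pairs (right), with 1 numbered point per library and a line at each group's median. On the left the libraries span from 62.3 CPM to 7.62% of all counts, with high libraries in 3 of the 4 groups. On the right all 23 libraries lie between 146 and 611 CPM.

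The rise in WT libraries 10 and 12 at 3 months ran through most of the 210 members. A member was counted as raised in a library when it was at 1 CPM or more there and at least 5 times the median of the 4 low GRKO libraries at 6 months. By this count 172 of the 210 were raised in WT library 10 at 3 months and 157 in WT library 12, with 149 raised in both and 30 in neither. WT library 13 of that age had 55 and WT libraries 2 and 6 had 10 and 8. In WT at 6 months, library 9 had 57 and the others had 7 to 25. GRKO at 3 months had 23 in library 12 and 2 to 15 in the others. GRKO libraries 2, 3, 5 and 11 at 6 months, which serve as the reference, had 0, 0, 0 and 1.

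Applying the rule itself to the other groups gave another view of the same pattern. It found 518 transcripts among the 5 WT libraries at 3 months, 111 among the 6 WT libraries at 6 months and 33 among the 6 GRKO libraries at 3 months. In WT at 3 months 63 of the 518 were highest in libraries 10 and 12, and 55 of these 63 were among the 210 members. Another 385 were highest in WT libraries 2 and 6, of which 1 was among the 210. The lists shared 61 transcripts in all, which is 24.5% of the 249 members and 11.8% of the 518. With WT at 6 months the members shared 1 transcript, and with GRKO at 3 months 0.

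**Figure D3:**
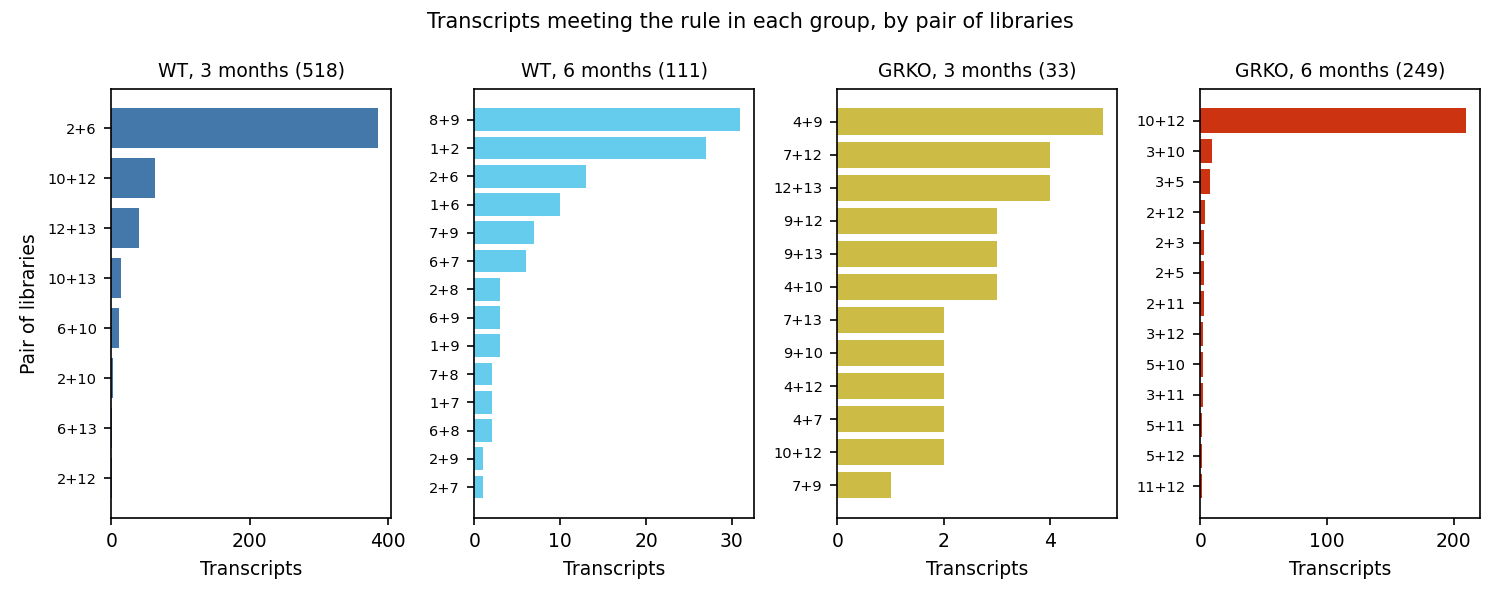
Number of transcripts that meet the same rule in each of the 4 groups (bars, with a scale of its own in each panel), by the pair of libraries in which they are highest. In GRKO at 6 months 1 pair holds 210 of 249, while in GRKO at 3 months no pair holds more than 5 of 33.

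The relative levels of the 210 members were compared between libraries. GRKO libraries 10 and 12 at 6 months chose the members, so the value between them is a description. The log2 levels (0.1 CPM added) correlated with those in GRKO library 10 at 6 months at r = 0.960 in GRKO library 12, 0.916 and 0.911 in WT libraries 12 and 10 at 3 months and 0.834 in WT library 9 at 6 months. The values were 0.748 for WT library 13 at 3 months and 0.710 for GRKO library 12 at 3 months. In WT libraries 2 and 6 at 3 months they were -0.20 and -0.15. These correlations run across transcripts, which are not independent replicates, and members of low level are limited by counting error.

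For 145 of the 210 members, no low GRKO library at 6 months exceeded 0.5 CPM, so that a level in another library could be read as a fraction of that in GRKO library 10. GRKO library 12 had a median of 92.5% of it, with quartiles of 72.2% and 120% over the members. WT library 10 at 3 months had a median of 21.3% (quartiles 13.9% and 27.7%) and WT library 12 had 14.5% (10.4% and 19.1%). WT library 9 at 6 months had 1.75% and WT library 13 at 3 months 1.28%. All 4 low GRKO libraries lay between 0.0795% and 0.103%.

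The fraction in these young wild-type libraries was also compared between abundant and scarce members. Against the mean of GRKO libraries 10 and 12, WT library 12 at 3 months had a median of 14.6% for the 39 members over 100 CPM, 14.6% for the 99 of 10 to 100 CPM and 16.6% for the 72 of 5 to 10 CPM. WT library 10 had 16.3%, 23.7% and 22.3% in the same order. The class median in WT library 12 thus varied little, and that in WT library 10 was lowest for the abundant members. Single members lay on both sides. In WT library 12 at 3 months, ENSDART00000050238.6 had 10065 CPM, against 29297 and 15278 CPM in GRKO libraries 10 and 12. ENSDART00000061165.7 had 2028 against 6841 and 5019 CPM, but ENSDART00000136837.2 only 447 against 4523 and 4040 CPM. The classes took in members also present in the low GRKO libraries, which can raise the fractions of scarce members.

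**Figure D4:**
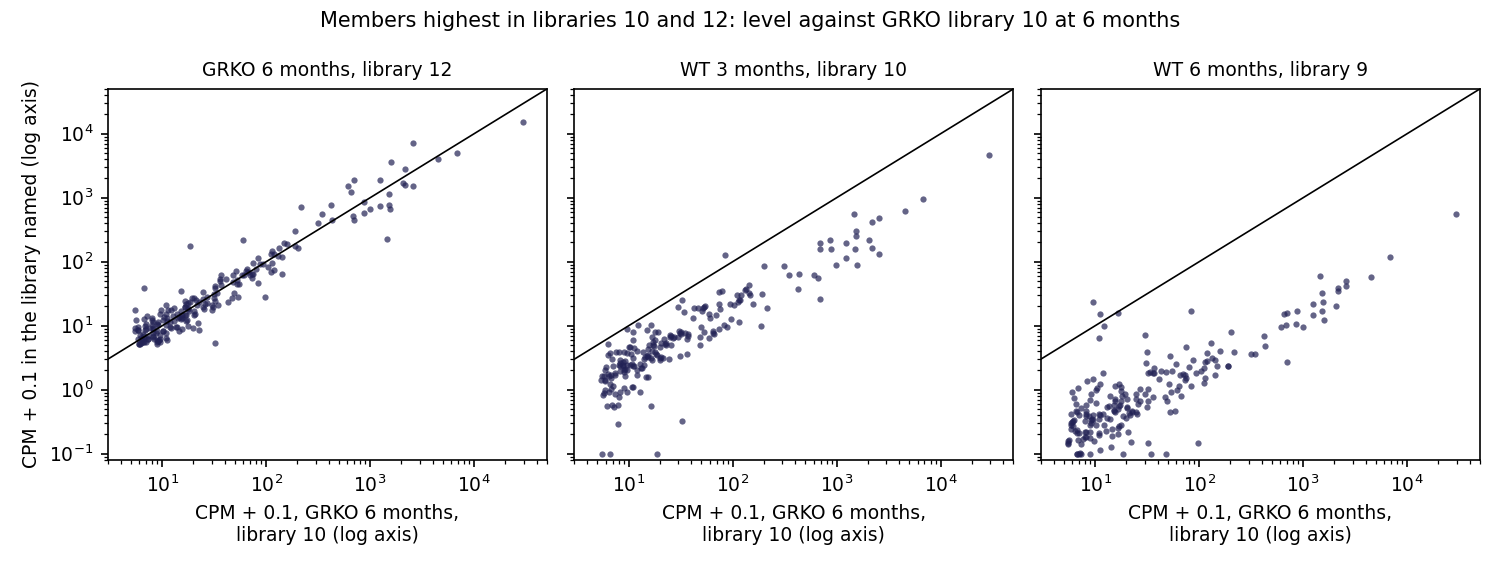
Level of each of the 210 members in GRKO library 12 at 6 months (left), WT library 10 at 3 months (middle) and WT library 9 at 6 months (right), against its level in GRKO library 10 at 6 months, as CPM plus 0.1 on log axes with a line of equal level. The points follow the line on the left (r = 0.960 for log2 levels) and run below it and parallel to it in the middle (r = 0.911), while on the right those of low level scatter near 0 (r = 0.834).

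The set was not fully uniform within the high libraries. Of the 210 members, 147 differed by less than 1.5-fold between GRKO libraries 10 and 12 (0.1 CPM added to both), 35 were at least 1.5-fold higher in library 10 and 28 at least 1.5-fold higher in library 12. This split was made after the values were seen. The largest of those favouring library 12 was ENSDART00000113682.4, at 2560 CPM in library 10 and 7200 CPM in library 12. The one of the 210 that most favoured library 10 was ENSDART00000181205.1, at 1464 and 226 CPM.

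The levels of these 2 transcripts in the groups at 3 months were as follows. ENSDART00000113682.4 stood at 132 and 321 CPM in WT libraries 10 and 12 at 3 months and at 0.0884, 0.531 and 19.4 CPM in libraries 2, 6 and 13. In GRKO at 3 months its lowest, median and highest levels were 0.162, 2.26 and 32.7 CPM. ENSDART00000181205.1 was higher in those WT libraries, at 565 and 589 CPM, with 0, 0 and 15.99 CPM in libraries 2, 6 and 13. In GRKO at 3 months it was at 0 in 5 libraries and at 0.797 CPM in library 12. In CPM, ENSDART00000113682.4 was thus the lower transcript in WT libraries 10 and 12 at 3 months. It was the higher one in the other 3 WT libraries and in all 6 GRKO libraries of that age. It was also the higher one in GRKO library 10 at 6 months, at 2560 against 1464 CPM. The order in CPM is therefore not an order of fractions of that library.

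Medians of these kinds were also compared among members at or under 0.5 CPM in the low libraries. As a fraction of GRKO library 10 at 6 months, WT library 10 at 3 months had 9.38% for 19 members that favoured library 12 and 21.0% for 27 that favoured library 10. WT library 12 had 9.32% and 14.3%. WT library 13 had 0.713% and 1.102%, WT library 6 had 0.426% and 0, and WT library 2 had 0 for both. In GRKO at 3 months library 12 had 0.972% and 0.135%, library 9 had 0.760% and 0.0269%, and library 7 had 0 for both. In the other 3 GRKO libraries of that age the former was also the larger. For members of ordinary level, percentages this low rest on few or no counts. The order of the kinds in GRKO at 3 months is therefore limited by counting error. WT at 6 months was mixed, with 1.11% and 1.62% in library 9 but 0.452% and 0.102% in library 1. GRKO library 10 both made the split and served as reference, which raises the fractions of members that favoured library 12. A further comparison set the mean of WT libraries 10 and 12 at 3 months against the mean of GRKO libraries 10 and 12. Its median was 7.81% for all 28 members that favoured library 12 and 23.4% for all 35 that favoured library 10. Differences between the kinds were not tested, as the split used the same values as the rule.

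**Figure D5:**
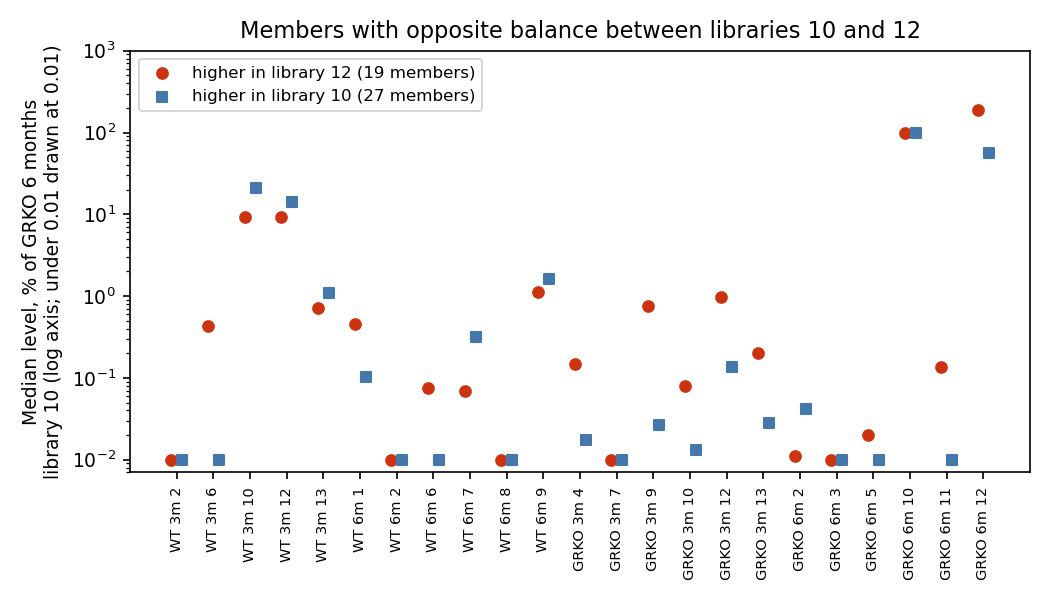
Median level per library, as a percentage of GRKO library 10 at 6 months (log axis), of 19 members at least 1.5-fold higher in GRKO library 12 (circles) and 27 at least 1.5-fold higher in library 10 (squares), all under 0.5 CPM in the 4 low libraries. Squares lie above circles in WT libraries 10, 12 and 13 at 3 months, and circles lie above squares in GRKO libraries 9 and 12 at 3 months. The low percentages in GRKO at 3 months are limited by counting error. GRKO library 10 both made the split and is the reference, which raises the circles.

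Outside GRKO at 6 months, the members differed in how many libraries held them at 1 CPM or more. In WT libraries 10 and 12 at 3 months, 189 and 177 of the 210 reached that level. Of the 210, 10 were under 1 CPM in all 17 other libraries, 90 reached it in 1 or 2 of them, 52 in 3 to 5, 56 in 6 to 16 and 2 in all 17. The scarcest were led by ENSDART00000112452.4, at 16.4 and 24.1 CPM in GRKO libraries 10 and 12 and at 0 in the other 4 of that group. It was at 0.456 and 0.225 CPM in WT libraries 10 and 12 at 3 months and 0 in the other 3. In WT at 6 months it was seen only in library 9, at 0.1004 CPM, and in GRKO at 3 months only in libraries 7 and 12, at 0.0657 and 0.160 CPM. Of the 6 libraries with the highest sums of the set, it was at 0 in WT library 13 at 3 months, and GRKO library 7 at 3 months had it with the lowest sum of all. The levels of this transcript in WT at 6 months and GRKO at 3 months rest on rounded totals of only 3 and 7 counts.

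ENSDART00000186432.1, next among the scarce members, did not keep to this pattern. It had 12.7 and 13.9 CPM in GRKO libraries 10 and 12 at 6 months and 0.0998 to 0.200 CPM in the others. WT library 10 at 3 months had 0.827 CPM of it and WT library 12 a rounded count of 0, while libraries 2, 6 and 13 had 0.342, 0.332 and 0.474 CPM. WT at 6 months ranged from 0.113 to 0.218 CPM and GRKO at 3 months from 0.0558 to 0.228 CPM. A low level was thus present in nearly every library.

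The 2 members at 1 CPM or more in all 17 other libraries differed from each other. ENSDART00000008498.8 stood at 73.9 and 94.9 CPM in GRKO libraries 10 and 12 at 6 months, 33.3 and 11.0 CPM in WT libraries 10 and 12 at 3 months and 2.35 to 5.51 CPM in all other libraries. ENSDART00000171434.2 stood at 16.4 and 19.3 CPM in GRKO libraries 10 and 12 and 1.70 to 2.89 CPM in the other 4. In WT at 6 months it was at 16.04 ± 1.08 CPM (mean ± SD, n = 6), so that the high pair matched the older wild type and the other 4 GRKO libraries lay below it. It also reached 30.2 CPM in WT library 6 at 3 months, where the set was low. In all, 206 of the 210 members were higher in both GRKO libraries 10 and 12 than in every WT library at 6 months, and 3 of the 4 exceptions were present in every WT library of that age at 20% of the pair's lower value or more.

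The 39 members that were highest in other pairs made up a different kind of transcript. They were less abundant, with a median of 11.0 CPM in the lower library of their pair and a maximum of 97.5 CPM. All but 1 were seen at 20% or more of their lower value in some of the 17 other libraries, and none in all 17, with a median of 7 libraries. For the 210 the median was 1 library, and 56 reached this level in none of the 17. Their summed level was 404 to 560 CPM in WT at 3 months, 410 to 565 CPM in WT at 6 months, 146 to 536 CPM in GRKO at 3 months and 209 to 611 CPM in GRKO at 6 months.

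The most abundant of the 39, ENSDART00000055161.5, was near 0 in some libraries of every group and near 100 CPM in others. GRKO libraries 2 and 3 at 6 months had 107 and 97.5 CPM and the other 4 had at most 0.0116 CPM. In WT at 3 months it stood at 26.2, 131 and 88.8 CPM in libraries 2, 6 and 10 and at 0.174 and 0.965 CPM in libraries 12 and 13. In WT at 6 months libraries 1, 7, 8 and 9 had 99.3 to 117 CPM, and libraries 2 and 6 had 0.0190 and 0.0329 CPM. GRKO library 4 at 3 months had 102 CPM, and the other 5 had 2.09 CPM or less. High and low libraries occurred in all 4 groups as titled, so that the groups overlapped. In GRKO at 3 months this rests on library 4 alone, whose genotype field gives WT.

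The 9 members highest in GRKO libraries 3 and 10 at 6 months also moved together in other groups. Their summed level was 272 and 310 CPM in this pair and 27.6 to 34.3 CPM in the other 4. It was 170, 293 and 158 CPM in WT libraries 1, 2 and 6 at 6 months and 24.6 to 30.6 CPM in libraries 7, 8 and 9. In GRKO at 3 months library 12 had 259 CPM, library 9 had 89.0 CPM and the others 33.1 to 36.2 CPM. All WT libraries at 3 months were low, at 24.6 to 33.7 CPM. Among them, ENSDART00000186399.1 had 24.3, 88.6 and 30.4 CPM in WT libraries 1, 2 and 6 at 6 months and 5.09 to 10.2 CPM in the other 3. GRKO library 12 at 3 months had 74.5 CPM of it and the others of that group 7.68 to 17.7 CPM. ENSDART00000083015.5 had 77.7, 85.5 and 63.0 CPM in WT libraries 1, 2 and 6 at 6 months and 6.38 to 7.09 CPM in the other 3. GRKO libraries 12 and 9 at 3 months had 92.1 and 50.1 CPM of it and the others of that group 13.8 to 18.8 CPM. Both were thus higher in WT libraries 1, 2 and 6 than in WT libraries 7, 8 and 9 at 6 months.

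The 8 members highest in GRKO libraries 3 and 5 at 6 months summed to 82.2 and 72.1 CPM there and to 0.373 to 1.24 CPM in the other 4. They were higher in most wild types, at 182, 204 and 286 CPM in WT libraries 10, 12 and 13 at 3 months and 123 to 208 CPM in WT libraries 6, 7, 8 and 9 at 6 months. WT libraries 2 and 6 at 3 months had 17.03 and 17.7 CPM, and WT libraries 1 and 2 at 6 months had 12.5 and 29.2 CPM. All 6 GRKO libraries at 3 months were at 6.02 CPM or less. The 4 members highest in GRKO libraries 2 and 12 summed to 39.7 and 68.3 CPM there, 62.0 and 86.5 CPM in WT libraries 2 and 6 at 3 months and at most 1.05 CPM in libraries 10, 12 and 13. Their sum in GRKO at 3 months was 6.40 to 58.3 CPM, and in WT at 6 months it was at most 11.5 CPM. One member, ENSDART00000067253.5, was seen in GRKO at 6 months alone, at 11.8 and 6.47 CPM in libraries 3 and 5, 0.667 CPM in library 12 and 0.0263 CPM in library 11, with a rounded count of 0 in all 17 other libraries.

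Genotype at 3 months could be tested, since the rule did not use the libraries contrasted. The estimate of spread, however, drew on all 23 libraries, with the GRKO libraries at 6 months that chose the members. The test was thus not fully independent of the rule. Of the 249 members, 218 passed the filter on low counts, which was met in at least 5 of the 23 libraries. GRKO libraries 10 and 12 at 6 months, which chose most members, counted towards this filter. In the fit without them 199 members were tested. In the fit of all 23 libraries, 16 of the 218 (7.34%) differed, all lower in GRKO (quasi-likelihood test of edgeR, adjusted p under 0.05). Over all 30849 transcripts tested, 8.39% differed, 2.66% being higher and 5.73% lower. The share of calls among members was thus near the background in this fit, and a little above that of lower calls. At an unadjusted p under 0.05 (edgeR), 121 of the 218 members differed, and 7322 of all 30849 transcripts. Many members move together, so these counts are a description. The share of calls was not near the background in every fit. With the 2 groups fitted alone, 20 of 129 members tested (15.5%) were called, 1 higher and 19 lower in GRKO, against 5.42% of all transcripts. In the fit of all 23 libraries with TMM scaling, 31.7% of all calls were higher, and 46.5% were with upper-quartile scaling. Under that scaling 16 members again were called, all lower (7.34%, against 9.11% of all transcripts). With TMM scaling over all 23 libraries, the members' median log2 fold change was -3.24, against -0.09 over all transcripts tested. With the 2 groups fitted alone it was -2.07, against -0.04. Without the filter all 249 were tested, with a median of -3.35 and 1 call (0.402%, against 3.35% of all transcripts).

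This difference rested on part of the wild-type libraries. Of the 180 members of the 210 that were tested, 9 were lower in GRKO (5.00%), and of the 38 others 7 were (18.4%). For 11 of the 16 calls, libraries 10, 12 and 13 of WT exceeded every GRKO library and libraries 2 and 6 did not, and for 3 all 5 WT libraries did. Over the 249 members, 12 had every WT library above every GRKO library at 3 months and 0 the reverse, where 1.83% and 1.6% of all transcripts did. Leaving out WT libraries 10 and 12, which held the set, gave 2 calls and a median of -0.87. This choice was made after their high levels were seen, so a smaller difference was built in. Leaving out WT libraries 2 and 6 gave 112 calls, of which 109 were lower in GRKO. The 2 calls are 0.922% of the members tested against 4.17% of all transcripts, and the 112 are 45.2% against 27.2%. Without GRKO libraries 10 and 12 at 6 months, which enter the estimate of spread, 89 members were lower in GRKO (44.7% of those tested, against 8.95% of all transcripts called). DESeq2 called 79, all lower (36.2% against 13.3%). With 1 library left out, 40 and 42 members were called without WT library 2 or 6 (16.4% and 17.2%, against 11.1% and 11.3% of all transcripts). Without WT library 10, 12 or 13, 5, 2 and 5 were called (2.33%, 0.926% and 2.05%, against 6.40%, 5.35% and 4.96%). Leaving out any 1 of the 6 GRKO libraries at 3 months gave 2 to 4 (0.917% to 1.88%, against 5.49% to 6.31%). Leaving out GRKO library 2 or 3 at 6 months gave 26 each (11.9% and 12.1%, against 8.01% and 8.29%).

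Among the called members, ENSDART00000168379.2 and ENSDART00000164205.2 had the most negative fold changes, and both were highest in GRKO libraries 3 and 5 at 6 months. ENSDART00000168379.2 stood at 61.5, 62.5 and 103 CPM in WT libraries 10, 12 and 13 at 3 months and at 0 in libraries 2 and 6, and its rounded count was 0 in each of the 6 GRKO libraries. With GRKO set at 3 counts over all its libraries, the level there was at least 3062-fold lower (edgeR adjusted p = 0.0257). Over 35 other settings its edgeR, DESeq2 or limma adjusted p ran from 1.68e-20 to 0.313, and 5 of them lost the call. ENSDART00000164205.2 stood at 42.5, 52.4 and 61.4 CPM in WT libraries 10, 12 and 13 and at 0 in libraries 2 and 6 and in all 6 GRKO libraries. It was at least 2111-fold lower (edgeR adjusted p = 0.0293), and the call was lost in 14 of 35 settings, with adjusted p from 1.4e-19 to 0.255. In both cases 3 of 5 WT libraries set the difference.

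Of the 210, ENSDART00000181205.1 was also among the calls, with a log2 fold change of -10.90 (SE 3.34, edgeR adjusted p = 0.0462). Its WT libraries 2 and 6 were at 0 like 5 of the 6 GRKO libraries, so the groups overlapped. The largest member, ENSDART00000050238.6, had 4694, 10065 and 289 CPM in WT libraries 10, 12 and 13 at 3 months and 0.355 and 0.0858 CPM in libraries 2 and 6. Its lowest, median and highest levels in GRKO at 3 months were 0.199, 2.78 and 48.9 CPM. The WT libraries thus lay on both sides of the GRKO range.

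Age in wild type was the other comparison whose libraries the rule did not use, and it shares the WT libraries at 3 months with the comparison of genotypes. Its filter and estimate of spread also drew on the libraries that chose the members. None of the 218 members tested differed between 6 and 3 months (edgeR, adjusted p under 0.05), where 3 of 30849 transcripts (0.00972%) did, 0.00648% higher and 0.00324% lower. Every WT library at 3 months lay above every one at 6 months for 2 members, against 0.121% of all transcripts, and the reverse held for 0 members, against 0.547%. At an unadjusted p under 0.05 (edgeR), 82 of the 218 members differed, and 3477 of all 30849 transcripts. Without WT libraries 10 and 12 at 3 months, 7 of 217 members and 5272 of 32810 transcripts did. That choice was made after their high levels were seen, so a smaller count of members was built in. DESeq2 called 3 members, all lower at 6 months (1.38% of those tested, against 1.35% of all transcripts). With limma 0 were called, against 0.0681% of all transcripts. The median log2 fold change of the members was -2.75, against -0.01 over all transcripts. With the 2 groups fitted alone it was -2.03, again against -0.01. It was 0.01 without WT libraries 10 and 12 at 3 months, which were left out after their high levels were seen. ENSDART00000050238.6 had a lowest, median and highest level of 0, 22.3 and 562 CPM in WT at 6 months. These values overlapped with those of the younger wild type.

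At 6 months the comparison of genotypes used the libraries of the rule, so its calls describe the members and support nothing. Of the 218 members tested, 62 were called higher in GRKO, all from the 210, where 2.53% of all transcripts were higher, 3.51% lower and 6.05% either. They made up 7.93% of the 782 transcripts called higher at that age.

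Reads that fit several transcripts were divided between them by the authors' tool. Whole estimated counts in every library (within 1e-06) were found for 27 of the 210 members (12.9%) and for 1 of the 39 others (2.56%). Over all transcripts with any count the share was 14.6%. Levels of the other members can include reads shared with similar transcripts, and how many of the 210 belong to the same genes was not analysed here.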

How the data were processed

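Ovary RNA-seq libraries (23) were compared. The authors deposited estimated counts per transcript, made with kallisto 0.48.0 on build GRCz11, per the submitters' processing notes. Strand, annotation release and filtering of reads: not given in the sources used here. Titles set each library's group. The members and all lists, tests and alternatives were chosen with earlier results of these data known.

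CPM values used plain library totals. For tests, estimated counts were rounded and fitted with edgeR 4.0.16 (robust quasi-likelihood, TMM, default expression filter, 1 mean per group over all 23 libraries) in R 4.3.3, with p-values adjusted by Benjamini-Hochberg over 30849 transcripts and a threshold of 0.05. Standard errors were taken as the size of the log2 fold change over the root of F. Fold bounds use a floor of 3 counts over an empty group and cover counting error only. Alternatives used DESeq2 1.42.0, limma 3.58.1 (voom, quality weights), other scaling, filters, groupings and left-out libraries. Leaving out WT libraries 10 and 12 at 3 months was chosen after seeing the data.

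The rule for naming took the 2 members of highest level under 1 CPM in all other groups, or at 1 CPM or more in all their libraries, for libraries 10 and 12 and for other pairs, the 2 largest folds among calls of each direction at 1 CPM or more on average, and the transcripts next to the limit. Others were named after their values were seen. On simulated counts over 30849 transcripts, the test recovered 30% of 2-fold and 58% of 4-fold changes for genotype at 3 months (100 each, 3 false calls), and 41% and 67% for age in WT (10 false calls). Marker lists fixed for named genes could not be applied. Python 3.11.15 with matplotlib 3.10.9 made the figures.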

Additional observations from a re-analysis of the deposited data

Results flagged for a closer look

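Single libraries that stood far from the rest of their group were found in 20 of 63 sets of values checked. The measure was the gap to the nearest value as a share of the group's range. Its limits are set for about 5% by chance. That rate does not apply here, since several transcripts were named for their values and the sets include the group that the rule used. Members of the 210 move together, so these are not independent.

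WT library 9 at 6 months stood apart in that group for the summed level of the 210 members (1456 CPM, others 132 to 245 CPM). It also did for ENSDART00000050238.6 (562 CPM), ENSDART00000061165.7 (118 CPM), ENSDART00000113682.4 (49.6 CPM), ENSDART00000181205.1 (59.12 CPM) and ENSDART00000112452.4 (0.1004 CPM, a rounded count of only 3). GRKO library 12 at 3 months stood apart for ENSDART00000050238.6 (48.9 CPM, others at most 9.28 CPM), ENSDART00000061165.7 (17.95 CPM), ENSDART00000113682.4 (32.7 CPM) and ENSDART00000181205.1 (0.797 CPM).

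In the group that the rule used, library 12 stood apart for ENSDART00000113682.4 (7200 CPM) and library 10 for ENSDART00000181205.1 (1464 CPM). GRKO library 3 of that group stood apart for the summed level of the 39 other members (611 CPM, others 209 to 352 CPM).

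The remaining cases were WT library 10 at 3 months for ENSDART00000008498.8 (33.3 CPM) and, for ENSDART00000171434.2, WT library 6 (30.2 CPM) and GRKO library 9 (12.2 CPM) at 3 months. ENSDART00000186399.1 stood apart in WT library 2 at 6 months (88.6 CPM) and GRKO library 12 at 3 months (74.5 CPM), and ENSDART00000186432.1 in WT library 2 at 6 months (0.218 CPM). ENSDART00000055161.5 stood apart in GRKO library 4 at 3 months (102 CPM, others at most 2.09 CPM), the library whose genotype field gives WT.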

How the results depend on the processing

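The rule found 398 members with a minimum of 2 CPM and 159 with 10 CPM, of which 138 were highest in libraries 10 and 12. Leaving out each GRKO library at 6 months in turn gave 54 to 281 members (54 without library 12, 58 without library 10) and 0 to 223 in that pair, where the 0 is fixed because library 10 or 12 was taken out. Other settings of the rule stayed within 1.5 times. For genotype at 3 months, the 16 members called became 79 with DESeq2, 47 with limma (1 higher, 46 lower), 1 without the filter, 4 without GRKO library 4 and 2 with it as WT. DESeq2, limma and no filter called 36.2%, 21.6% and 0.402% of members tested, against 13.3%, 33.1% and 3.35% of all transcripts. The last 2 settings called 1.87% against 6.20% and 0.917% against 1.48%. The 16 became 112 without WT libraries 2 and 6, 89 without GRKO libraries 10 and 12 at 6 months and 2 without WT libraries 10 and 12. Leaving out 1 library gave 2 to 42. All transcripts called (2588) became 4116 with DESeq2, 10197 with limma, 1447 with the 2 groups alone, 456 with GRKO library 4 as WT, 8937 without WT libraries 2 and 6 and 1369 without WT libraries 10 and 12, and 1575 to 3593 without 1 library (1575 without WT library 13, 1696 without WT library 12, 1687 without GRKO library 10 at 3 months). Of the 2588, 31.7% were higher, and of those called with upper-quartile factors 46.5% were. For age in WT the members called were 0, with 3 under DESeq2 (1.38%, against 1.35% of all transcripts) and 0 to 0 without 1 library. All transcripts called (3) became 416 with DESeq2, 21 with limma, 1 with the 2 groups alone, 1 with GRKO library 4 as WT, 58 without WT libraries 2 and 6, 195 without WT libraries 10 and 12 and 2 to 26 without 1 library (26 without WT library 10 at 3 months, 5 and 7 without WT library 1 or 8 at 6 months). The cause of these changes was not tested. With the library number as a block, 20 members and 253 transcripts were called for genotype (9.17% of members and 0.820% of all tested) and 0 and 0 for age. The members' median log2 fold change for age was -0.39 with the block, against -2.75 without it. The block terms for numbers 10 and 12 drew on GRKO libraries 10 and 12 at 6 months, which chose the members. The values for members with the block are thus a description and support nothing. Deviations of same-numbered libraries from their group means correlated at -0.29, 0.13 and 0.03 for numbers 10, 12 and 13 across genotypes at 3 months. For numbers 2 and 6 across ages in WT they correlated at 0.36 and -0.15. GRKO at 6 months was not part of this comparison, so it cannot settle whether the numbers pair samples. The main fits did not pair them.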
